A study of Mus musculus with 4 samples.

Results

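The genes described here encode axon guidance cues and their receptors: the ephrins and Eph receptors, the semaphorins with their plexin and neuropilin receptors, the slits with the roundabout (Robo) receptors, and the netrins with *Dcc* and the Unc5 receptors. They were chosen by name, from rows of the array that carry a single gene symbol, and without the Slitrk genes. Of 22180 such genes, 69 were members. *Plxna1*, *Plxnb1* and *Ephb1* each had 2 rows, and each gene was represented by its brightest row, by the mean of the 4 arrays. *Unc50*, which encodes a Golgi protein, *Unc5cl* and the antisense gene *Plxna4os1* share letters with these families, were not counted as members and had log2 fold changes of −0.14, −0.12 and 0.18.

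Guidance cues are secreted or membrane-bound proteins that attract or repel a cell or a growing axon through a receptor at its surface. Ephrins stay on the membrane of the cell that makes them, so that ephrin and Eph receptor signal between cells in contact, while slits, most netrins and class 3 semaphorins are secreted. In epithelia the same proteins act on cell adhesion, cell sorting at boundaries and cell movement, and the hair follicle is supplied by sensory nerve endings and vessels that carry many of the receptors.

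Gene expression was measured in hair follicle stem cells (HFSCs), the CD34+CD49f+ cells of the bulge, sorted from telogen dorsal skin of mice at P70 as the labels give it. The text of the study places these cells in the telogen after a depilation and gives a slightly later day. *Hes1*eKO mice were *Hes1* fx/fx;K14-Cre. *Hes1* encodes a transcriptional repressor downstream of Notch, and K14-Cre is active in all keratinocytes that use the keratin 14 promoter, not in the bulge alone. Controls were littermates matched for age and gender, *Hes1* fx/fx or *Hes1* fx/wt, and both genotypes came from a mixed ICR and C57BL/6 background. There were 2 arrays per genotype, each from cells pooled from 2 mice. In such bulk samples, fewer cells of a type and less RNA per cell cannot be told apart.

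Some features of the arrays touch the results below. *Hes1* itself read 5.34 and 5.04 in controls against 5.05 and 4.37 in *Hes1*eKO HFSCs, as log2 RMA values in the order of replicate numbers 1 and 2, which holds for every pair of values below. Its log2 fold change of −0.48 (standard error, SE, 0.30) did not pass the threshold given below. The sources used here do not say whether its probes fall within the deleted sequence. All 11 measured bulge markers lay above the median of all values (4.38) on the 4 arrays. The arrays with replicate number 2 stood apart from those with number 1 in both genotypes. The summed linear level of 8 dermal fibroblast markers was 304 for control and 322 for *Hes1*eKO HFSCs on number 1, and 2978 and 2064 on number 2. Of these markers 6 of 8 were higher on number 2 in both genotypes, none was at 0, and none separated the genotypes. *Xist*, the RNA of the inactive X chromosome, had 8.80 and 8.95 on number 1 and 2.93 and 3.17 on number 2.

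No guidance gene passed the threshold of the study between the genotypes, more than a 1.5-fold difference up or down together with an unadjusted p under 0.05. By limma, 0 of 69 passed, where 1.66% of all genes did. The study applied these cutoffs in another program, Partek, and reported fewer genes than the 369 that passed here. With single arrays left out, *Nrp2*, *Ntn3*, *Sema6d* and *Unc5b* passed as higher without control 1 (2.18% of all genes passed then), *Ephb6* as higher and *Nrp2* as lower without control 2 (3.3%), and none without *Hes1*eKO 1 (1.22%). Without *Hes1*eKO 2, *Epha2*, *Ephb3*, *Ntn4* and *Plxna4* passed as higher and *Sema3e* as lower (3.07%). Their lowest adjusted p was 0.990 by limma with Benjamini-Hochberg adjustment over all 41345 rows, and the lowest over all rows was 0.829. *Epha2* alone had an unadjusted p under 0.05 in limma, where 516 of all 22180 genes did. By Student's t-test 3 members did, where 1900 of all 41345 rows did. The log2 fold changes ran from −0.77 for *Sema3e* to 0.96 for *Ntn4*, and 48 of 69 were smaller than 0.25 in size. A fold change beyond 1.5 was found for 3 members, *Ntn4*, *Sema3e* and *Robo2*, and for 4.68% of all genes. For 12 members, the 95% interval of the difference lay wholly inside a 1.5-fold change either way. For each of the others, a change of that size in at least 1 direction lay within the interval. The half-width of the interval had a median of 0.55 on the log2 scale and ran from 0.44 to 1.67.

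**Figure D1:**
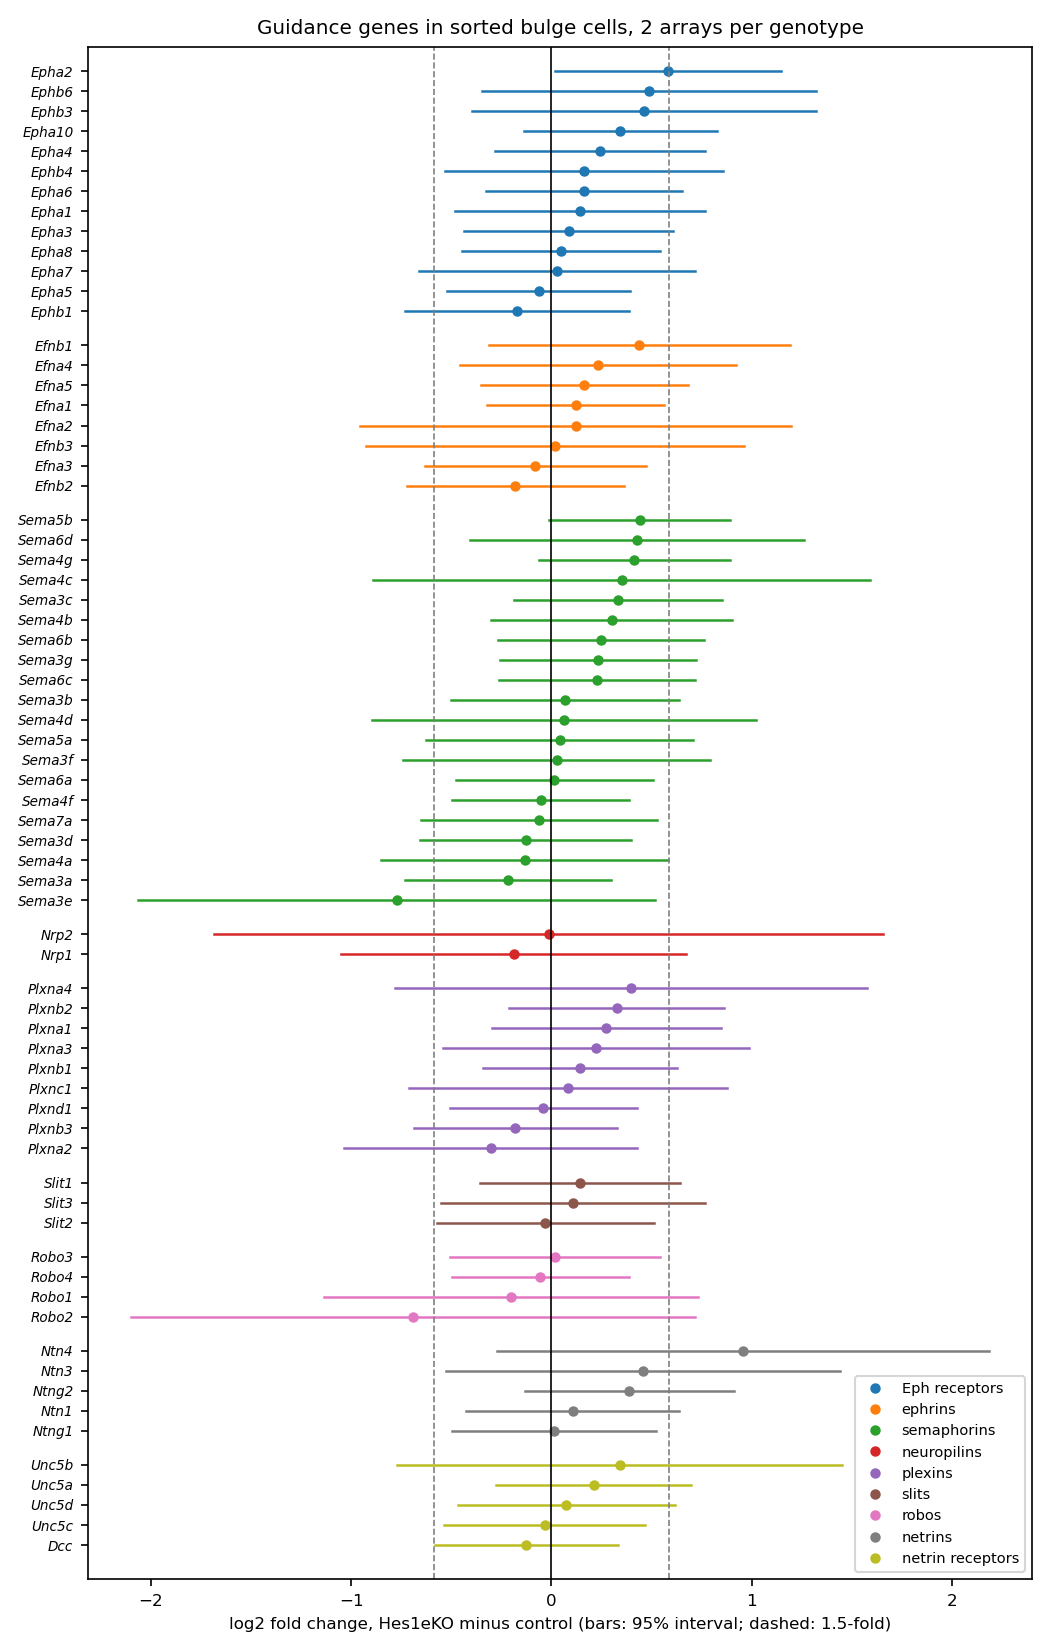
Log2 fold change (*Hes1*eKO minus control) of the 69 guidance genes by family, with 95% intervals from limma as bars and dashed lines at a 1.5-fold change either way (2 arrays per genotype). The interval of *Epha2* alone leaves out 0, and those of *Nrp2*, *Robo2* and *Sema3e* are among the widest.

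The signs were uneven among the members. A positive log2 fold change was found for 48 of 69 (69.6%), against 49.4% of all genes, and their median was 0.11, against −0.003 over all genes. Without *Hes1*eKO 1 the median was 0.02, with 40 positive, and without *Hes1*eKO 2 it was 0.22, with 49 positive. With all arrays it was 0.12 over the 36 ligand genes, of which 27 were positive, and 0.08 over the 33 receptor genes, of which 21 were positive. Within replicate number 1 the median difference of the 69 genes was 0.17, and within number 2 it was 0.08. *Hes1*eKO 1 was the highest of the 4 arrays for 42.0% of members, against 26.7% of all genes. Control 2 was the lowest array for 39.1% of them, against 24.9%. The values of the genotypes did not overlap for 18 members that were higher and 4 that were lower in *Hes1*eKO HFSCs, where 16.2% and 15.8% of all genes did so. The 4 lower ones, *Dcc*, *Robo4*, *Sema3a* and *Sema4f*, lay below the median of all values on every array. The sign of the difference was the same within number 1 as within number 2 for 35 members (50.7%), close to the share over all genes (51.0%). The difference was positive in both for 36.2% of members, against 26.0% of all genes, and negative in both for 14.5%, against 24.9%. No test was made of these shares, since genes on the same 4 arrays are not independent.

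The promoters of *Ntn4* and *Sema3e*, the genes with the largest difference in each direction, and of *Epha2*, the gene nearest the threshold, are shown because HES1 represses genes by binding their DNA. Each window holds the 250 bases before the RefSeq start of the gene (GRCm38.p6), on the plus strand in each case. They were searched on both strands for the N box (CACNAG), the E box (CACGTG) and the class C site (CACGCG) known to be bound by HES proteins, and no single match can count for more than 1 of these motifs. Capitals mark the only match.
*Epha2* (chr4:141300971-141301220): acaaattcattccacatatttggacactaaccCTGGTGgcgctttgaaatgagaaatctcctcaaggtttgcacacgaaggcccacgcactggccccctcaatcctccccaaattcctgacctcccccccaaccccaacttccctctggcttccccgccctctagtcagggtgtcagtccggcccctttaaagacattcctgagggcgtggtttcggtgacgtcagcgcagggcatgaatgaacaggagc
*Ntn4* (chr10:93640799-93641048): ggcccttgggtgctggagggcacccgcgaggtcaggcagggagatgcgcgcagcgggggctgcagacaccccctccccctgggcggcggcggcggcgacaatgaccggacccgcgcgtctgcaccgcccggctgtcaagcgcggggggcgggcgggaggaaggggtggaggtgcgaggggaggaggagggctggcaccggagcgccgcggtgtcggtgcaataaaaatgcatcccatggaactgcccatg
*Sema3e* (chr5:14025026-14025275): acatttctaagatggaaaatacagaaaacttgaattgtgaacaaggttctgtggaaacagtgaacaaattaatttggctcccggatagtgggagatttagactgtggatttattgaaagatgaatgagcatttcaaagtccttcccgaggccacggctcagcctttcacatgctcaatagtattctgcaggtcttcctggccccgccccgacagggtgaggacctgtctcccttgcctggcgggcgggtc
The match in *Epha2* is an N box read from the other strand, 218 bases before the start, and the windows of *Ntn4* and *Sema3e* held none of the 3 motifs. RefSeq windows were found for 59 members (75 windows, as some genes have several starts). The N box letters occurred in 45.3% of these and in 36.7% of all 32851 windows, the class C site in 13.3% and 7.62%, and the E box in 5.33% and 6.02%. Such matches are a description of sequence, and binding was not measured here.

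Eph receptors are receptor tyrosine kinases, and 11 of 13 had positive log2 fold changes with a median of 0.16. *Epha2* (row 17421033), a receptor of A-class ephrins that is broadly used in epithelia, read 6.77 and 6.69 in controls against 7.50 and 7.13 in *Hes1*eKO HFSCs. Both *Hes1*eKO arrays lay above both control arrays. Its log2 fold change was 0.58 (SE 0.21, 95% interval 0.02 to 1.14), and the difference was positive within number 1 (0.73) and within number 2 (0.44). The fold change of 1.497 fell just short of the threshold, and the adjusted p was 0.990 by limma. *Ephb6*, a B-class receptor whose kinase domain is inactive, read 8.14 and 8.91 in controls against 9.05 and 8.97 in *Hes1*eKO HFSCs. Its log2 fold change of 0.49 (SE 0.31, 95% interval −0.34 to 1.32) came with control 1 well below the other 3 arrays. Within number 2 its difference was 0.06. *Ephb3*, which binds B-class ephrins, had 7.27 and 7.16 in controls against 8.08 and 7.28 in *Hes1*eKO HFSCs, so that *Hes1*eKO 1 lay above the rest. Its log2 fold change was 0.46 (SE 0.32).

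*Epha1*, the Eph receptor row with the highest mean, read 9.28 and 9.76 in controls against 9.65 and 9.68 in *Hes1*eKO HFSCs. The *Hes1*eKO values lay between those of control, and the log2 fold change was 0.14 (SE 0.23, 95% interval −0.48 to 0.77). *Epha4*, which binds ephrins of both classes, had 8.22 and 8.43 in controls against 8.68 and 8.46 in *Hes1*eKO HFSCs (0.24, SE 0.19). The values of *Epha4* did not overlap between genotypes, but *Hes1*eKO 2 exceeded control 2 by 0.03. *Ephb4*, known from vessels as the partner of ephrin-B2, had a log2 fold change of 0.16 (SE 0.26) and *Ephb1* one of −0.17 (SE 0.21) in its brighter row and of 0.09 in the other. *Epha10*, a member with an inactive kinase domain, had 4.75 and 4.67 in controls against 4.95 and 5.15 in *Hes1*eKO HFSCs (0.34, SE 0.18). *Epha3*, *Epha5*, *Epha6* and *Epha7* lay below the median of all values on every array and had log2 fold changes between −0.06 and 0.16, while *Epha8*, just above that median, had 0.05.

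Ephrins were above the median of all values on the 4 arrays in all 8 cases, the only family of more than 2 genes here of which this holds. Their median log2 fold change was 0.12, and 6 of 8 were positive. *Efna3*, an ephrin anchored to the membrane by a lipid, had the highest mean row of the family, with 10.46 and 10.12 in controls against 10.15 and 10.27 in *Hes1*eKO HFSCs. These values overlapped, and the log2 fold change was −0.08 (SE 0.20, 95% interval −0.63 to 0.47). *Efnb1*, a transmembrane ephrin, had 9.23 and 8.74 in controls against 9.65 and 9.20 in *Hes1*eKO HFSCs. Its log2 fold change was 0.44 (SE 0.28), with differences of 0.41 and 0.46 within numbers 1 and 2, although control 1 slightly exceeded *Hes1*eKO 2. *Efnb2*, the transmembrane ligand of *Ephb4*, had differences of −0.18 within both numbers and overlapping values. *Efna1*, a lipid-anchored ligand of *Epha2*, had 9.18 and 9.16 in controls against 9.28 and 9.31 in *Hes1*eKO HFSCs (0.12, SE 0.16). Its 95% interval ran from −0.32 to 0.56 and so lay inside a 1.5-fold change either way. *Efna4* (0.23), *Efna5* (0.16), *Efna2* (0.12) and *Efnb3* (0.02) overlapped between genotypes, and for *Efna2* the control arrays, at 7.93 and 6.87, were farther apart than the genotype means.

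**Figure D2:**
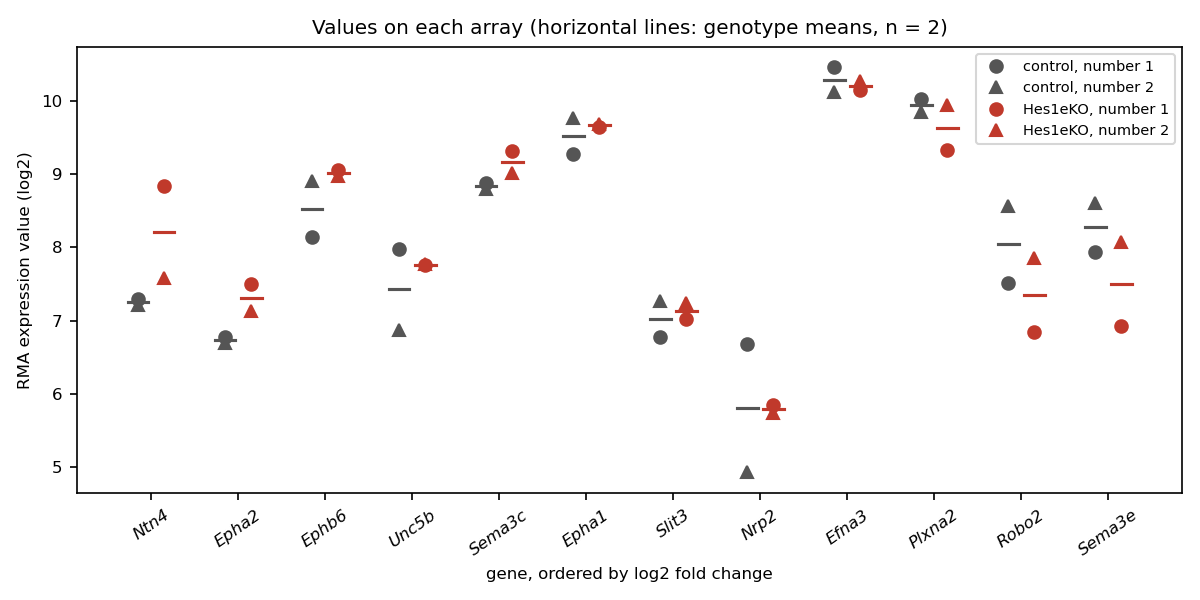
RMA values (log2) of 12 guidance genes on each array, with circles for replicate number 1, triangles for number 2 and horizontal lines for the mean of 2 arrays per genotype. Heights of different genes come from different probes and are not comparable; *Ntn4* stands high on *Hes1*eKO 1, and *Robo2* and *Sema3e* are lower in *Hes1*eKO within each number.

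Semaphorins signal through plexins, with neuropilins as coreceptors for most secreted class 3 members. Of 20 semaphorin genes 14 were positive, and their median was 0.06. *Sema3e* (row 17434813), a secreted semaphorin that binds Plexin-D1 without a neuropilin, read 7.94 and 8.61 in controls against 6.93 and 8.07 in *Hes1*eKO HFSCs. *Hes1*eKO 1 was the lowest array, and *Hes1*eKO 2 lay between the controls. The log2 fold change was −0.77 (SE 0.48, 95% interval −2.06 to 0.52). Within number 1 the difference was −1.0 and within number 2 it was −0.54. *Plxnd1*, the receptor gene of this ligand, had 4.73 and 4.81 in controls against 4.66 and 4.80 in *Hes1*eKO HFSCs, with overlapping values and a 95% interval of −0.50 to 0.43.

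*Sema3c*, another secreted semaphorin and the family's row with the highest mean, had 8.88 and 8.79 in controls against 9.31 and 9.02 in *Hes1*eKO HFSCs. Both *Hes1*eKO arrays were above the controls, with a log2 fold change of 0.33 (SE 0.19, 95% interval −0.19 to 0.85). *Sema4g*, a transmembrane semaphorin, had 7.31 and 7.15 in controls against 7.70 and 7.59 in *Hes1*eKO HFSCs (0.41, SE 0.18). *Sema5b*, which carries thrombospondin repeats, had 4.63 and 4.54 in controls against 4.99 and 5.06 in *Hes1*eKO HFSCs (0.44, SE 0.17). For both genes the *Hes1*eKO arrays were higher without overlap, the differences within numbers 1 and 2 were alike (0.39 and 0.44 for *Sema4g*, 0.36 and 0.52 for *Sema5b*), and the lower bound of the interval lay just below 0 (−0.06 and −0.01). *Sema4b* (0.30), *Sema6c* (0.23), *Sema3g* (0.23) and *Sema6b* (0.25), none past the threshold, also had higher values on both *Hes1*eKO arrays. *Sema6d* had a log2 fold change of 0.43 (SE 0.31) that came with control 2, at 2.96, below 3 arrays at 3.63 to 3.88. *Sema4c* had 7.45 and 6.60 in controls against 7.84 and 6.90 in *Hes1*eKO HFSCs, with differences of 0.39 and 0.31 within the numbers and a larger gap between the numbers themselves. *Sema4a* (−0.13), *Sema3d* (−0.13), *Sema5a* (0.04), *Sema3f* (0.03), *Sema3b* (0.07), *Sema4d* (0.06), *Sema6a* (0.02) and *Sema7a* (−0.06) overlapped between genotypes, while *Sema3a* (−0.22) and *Sema4f* (−0.05) were lower without overlap at dim signal.

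Plexins, the semaphorin receptors, had a median log2 fold change of 0.14, and 6 of 9 were positive. *Plxna2*, the brightest row of the family, read 10.03 and 9.85 in controls against 9.33 and 9.94 in *Hes1*eKO HFSCs. *Hes1*eKO 2 lay between the controls, and the log2 fold change was −0.30 (SE 0.27, 95% interval −1.04 to 0.43). *Plxnb2*, a receptor of class 4 semaphorins, had 8.37 and 8.54 in controls against 8.93 and 8.63 in *Hes1*eKO HFSCs (0.33, SE 0.20), higher on both *Hes1*eKO arrays. *Plxnb1*, the receptor of Sema4D, was likewise higher on both, by 0.14 (SE 0.18), whereas its dimmer row had −0.29 (SE 0.29). *Plxna4*, a partner of neuropilins, had 4.61 and 4.88 in controls against 5.73 and 4.56 in *Hes1*eKO HFSCs. Only *Hes1*eKO 1 was high, and within number 2 the difference was −0.31. *Plxna1* (0.27), *Plxna3* (0.22), *Plxnc1* (0.08) and *Plxnb3* (−0.18) overlapped between genotypes. *Plxna1* had differences of 0.31 and 0.23 within the numbers, and its other row had a log2 fold change of 0.30.

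Neuropilins had no clear direction. *Nrp2*, a coreceptor of class 3 semaphorins and of VEGF-C, had 6.69 and 4.93 in controls against 5.85 and 5.74 in *Hes1*eKO HFSCs. The control arrays lay on either side of the *Hes1*eKO arrays, and the log2 fold change of −0.01 had the largest standard error of all members (0.62, 95% interval −1.69 to 1.66). *Nrp1*, the coreceptor of Sema3A, had 4.63 and 5.39 in controls against 4.95 and 4.69 in *Hes1*eKO HFSCs, with differences of opposite sign within numbers 1 (0.33) and 2 (−0.70).

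Slits are secreted ligands of Robo receptors. *Slit3*, the slit row with the highest mean, had 6.78 and 7.26 in controls against 7.02 and 7.24 in *Hes1*eKO HFSCs, which overlapped (0.11, SE 0.24, 95% interval −0.55 to 0.77). *Slit1* (0.14) and *Slit2* (−0.03), the latter below the median of all values on the 4 arrays, overlapped as well. *Robo2* (row 17331481), a slit receptor, read 7.51 and 8.57 in controls against 6.85 and 7.85 in *Hes1*eKO HFSCs. Both genotypes were about 1 log2 unit higher on number 2, and *Hes1*eKO 2 exceeded control 1. The log2 fold change was −0.69 (SE 0.52, 95% interval −2.10 to 0.71), while the differences within numbers 1 and 2 were −0.66 and −0.72. *Robo1*, the related receptor, had 6.64 and 5.90 in controls against 6.32 and 5.81 in *Hes1*eKO HFSCs, negative within both numbers (−0.32 and −0.08) and lower on number 2. *Robo3* (0.02) and *Robo4* (−0.05), the latter known from endothelium, lay below the median of all values.

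Netrins were positive for all 5 genes, with a median log2 fold change of 0.39, but only *Ntn4* and *Ntn1* lay above the median of all values on every array. *Ntn4* (row 17236604) encodes a netrin of basement membranes that binds laminins. Its values were 7.29 and 7.21 in controls against 8.83 and 7.59 in *Hes1*eKO HFSCs. The controls lay close together, both *Hes1*eKO arrays were above them, and *Hes1*eKO 1 was far above *Hes1*eKO 2. The log2 fold change of 0.96 (SE 0.46, 95% interval −0.27 to 2.19) was the largest of the 69 in size and did not pass the test. Within number 1 the difference was 1.54, and within number 2 it was 0.37. *Ntn1*, the ligand of *Dcc*, had 4.68 and 4.87 in controls against 5.01 and 4.75 in *Hes1*eKO HFSCs and overlapped. *Ntng2*, a lipid-anchored netrin G, had 4.29 and 4.28 in controls against 4.83 and 4.52 in *Hes1*eKO HFSCs (0.39, SE 0.19). *Ntn3* had a log2 fold change of 0.46 (SE 0.37) that came with a single array, control 2 at 3.93, the other 3 lying at 4.85 to 4.89. *Ntng1* (0.01) lay below the median of all values.

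The netrin receptors were mostly dim. *Unc5b*, a receptor that mediates repulsion by netrins, was the exception, with 7.98 and 6.87 in controls against 7.76 and 7.77 in *Hes1*eKO HFSCs. The *Hes1*eKO arrays were nearly equal and lay between the controls, so that the log2 fold change of 0.34 (SE 0.41, 95% interval −0.77 to 1.45) came with control 2. *Unc5a* (0.21) was higher on both *Hes1*eKO arrays, at 4.57 and 4.40 against 4.20 and 4.34, and *Unc5d* (0.08) and *Unc5c* (−0.03) overlapped. *Dcc*, the receptor through which netrin-1 attracts axons, had 2.80 and 2.69 in controls against 2.58 and 2.66 in *Hes1*eKO HFSCs, below the median of all values on every array.

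The replicate numbers bear on *Robo2* and *Sema3e* in particular. These 2 genes were higher on number 2 by more than 1.5-fold in both genotypes, and *Sema4c* was lower there, together 3 of 69 (4.35%, against 2.71% of all genes). In *Sema3e* number 2 exceeded number 1 by 0.67 in control and by 1.14 in *Hes1*eKO HFSCs, and in *Robo2* by 1.06 and 1.0. The fibroblast markers *Dcn*, which encodes decorin, and *Dpt*, which encodes dermatopontin, went the same way. *Dcn* had 4.83 and 3.88 on number 1 against 10.42 and 9.95 on number 2, for control and *Hes1*eKO respectively. *Dpt* had 2.78 and 4.46 against 9.70 and 9.31. The sex-linked genes differed by number too: *Xist* was lower on number 2 in both genotypes, and the Y-linked *Eif2s3y*, *Uty* and *Kdm5d* were higher. *Eif2s3y* had 6.36 and 6.09 on number 1 against 7.32 and 7.15 on number 2, for control and *Hes1*eKO respectively. The part of fibroblasts or of sex in the values of *Robo2* and *Sema3e* was not tested. Between genotypes, 3 of the 8 fibroblast markers were lower in *Hes1*eKO HFSCs within number 1, with differences from −1.09 (*Col1a2*) to 2.27 (*Pdgfra*), and 8 of 8 were lower within number 2, from −1.01 (*Col3a1*) to −0.18 (*Pdgfra*). With the replicate number as a block, a fit that assumes the numbers pair the samples, *Robo2* (SE 0.18) and *Sema3e* (SE 0.22) passed the study threshold as lower, where 2.26% of all genes passed. Their adjusted p was 0.936 or more by limma. The methods speak of sample pairs, and *Xist* followed the number in both genotypes, but no source used here says that a number marks a litter.

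**Figure D3:**
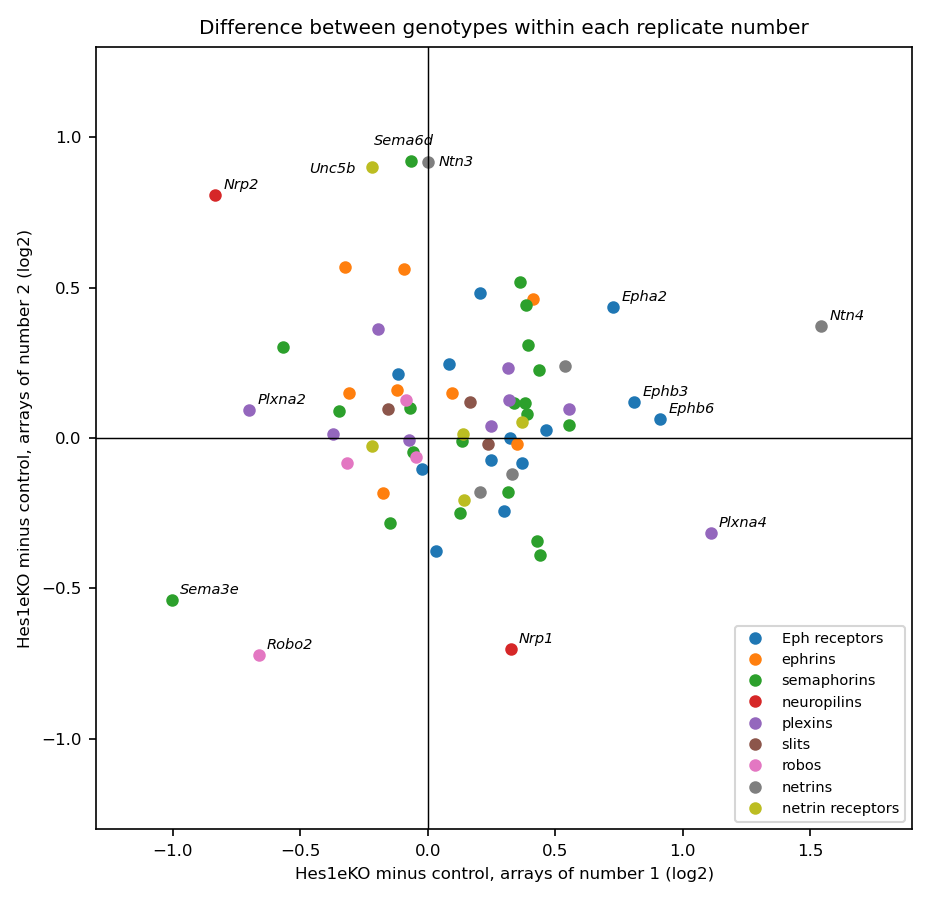
Difference between genotypes (*Hes1*eKO minus control, log2) for each of the 69 guidance genes on the arrays of replicate number 1 (horizontal axis) and of number 2 (vertical axis), coloured by family, with names where either exceeds 1.5-fold. *Robo2* and *Sema3e* are negative on both axes, while *Nrp2*, *Nrp1*, *Plxna4* and *Unc5b* have opposite signs.

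**Figure D4:**
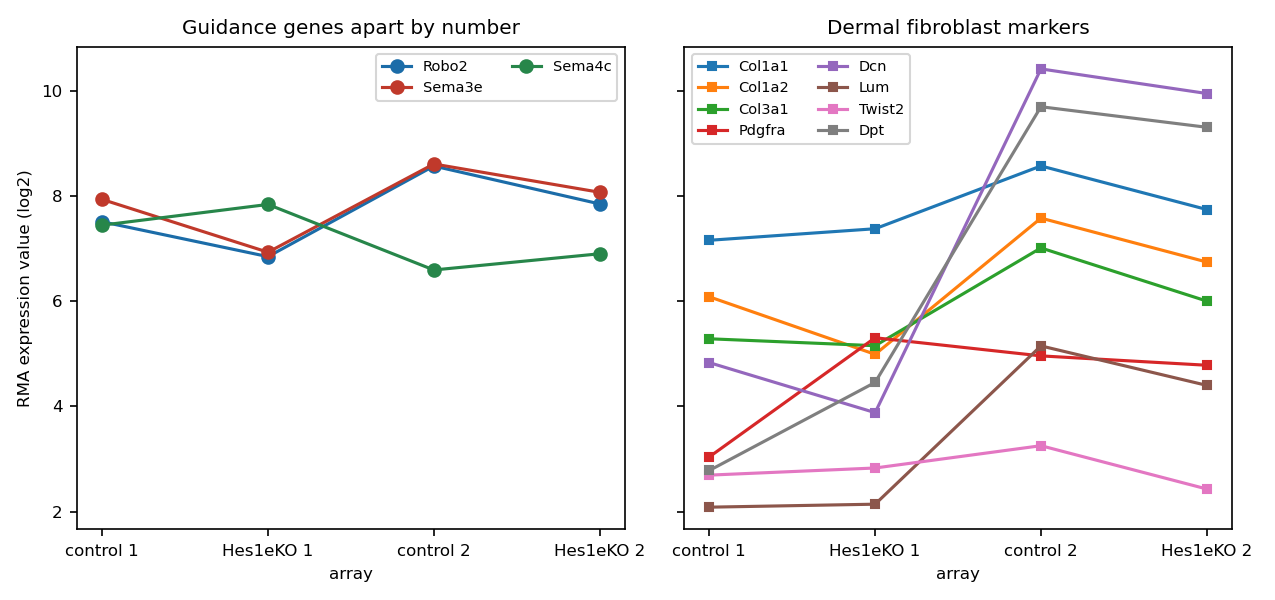
RMA values (log2) by array, ordered by replicate number, for 3 guidance genes (left) and 8 dermal fibroblast markers (right); lines join the arrays of a gene. *Robo2* and *Sema3e* are higher on both arrays of number 2, as are 6 of the 8 markers, among them *Dcn* and *Dpt*.

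Other cell types of skin carry many guidance genes. Of 12 endothelial markers 3 were higher without overlap in *Hes1*eKO HFSCs, as were 16.2% of all genes. Of the 12, *Cldn5* alone passed the study threshold, as higher (log2 fold change 0.71, SE 0.22), where 1.66% of all genes passed in either direction. *Cldn5* lay below the median of all values on every array. The summed linear level of these markers was 302 and 348 in controls against 458 and 348 in *Hes1*eKO HFSCs, high on *Hes1*eKO 1. Their median log2 value was instead highest on *Hes1*eKO 2, at 4.56 and 4.59 in controls against 4.67 and 4.85. On *Hes1*eKO 1, *Ntn4*, *Ephb3* and *Plxna4* were also high, and the summed level of 6 markers of differentiated epidermis was at its lowest. That epidermal sum was 1878 and 2090 in controls against 1119 and 3703 in *Hes1*eKO HFSCs. *Ivl* and *Flg*, among these markers, did not have their lowest value on *Hes1*eKO 1. The summed level of 6 T cell markers was 369 and 155 in controls against 70.1 and 113 in *Hes1*eKO HFSCs. Of these, 2 were lower without overlap, as were 15.8% of all genes. *Cd7* alone passed the study threshold, as lower (log2 fold change −2.66, SE 0.52), where 1.66% of all genes passed in either direction. *Cd2* had a positive value (0.12) and the other 5 negative ones. The part of these cells in the values of the guidance genes was not tested.

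Genes that work with the guidance receptors were taken from a list of 85 coreceptors, other ligands and intracellular effectors, of which 80 were measured. Of these 1 passed the threshold, where 1.66% of all genes did. A positive log2 fold change was found for 58 (72.5%, against 49.4% of all genes), and the median was 0.12. The gene that passed was *Dapk1*, a death-associated kinase engaged by Unc5 receptors, which had 5.96 and 6.10 in controls against 5.44 and 5.39 in *Hes1*eKO HFSCs. Its values fell by 0.62 (log2, SE 0.17), without overlap, but its adjusted p was 0.990 by limma. The call of *Dapk1* ended without *Hes1*eKO 1 (−0.65), without *Hes1*eKO 2 (−0.59) and without control 2 (−0.55). *Hspg2*, which encodes perlecan, a basement membrane proteoglycan, had 8.92 and 8.51 in controls against 10.19 and 9.19 in *Hes1*eKO HFSCs (0.98, SE 0.40). As for *Ntn4*, both *Hes1*eKO arrays were higher and *Hes1*eKO 1 most so. *Vav3*, a signaling protein downstream of Eph receptors, had 4.81 and 4.93 in controls against 6.09 and 5.13 in *Hes1*eKO HFSCs (0.74, SE 0.37). The Unc5 ligand genes *Flrt3* (0.45) and *Flrt2* (0.38) were higher on both *Hes1*eKO arrays without passing the threshold.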

How the data were processed

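Total RNA of sorted CD34+CD49f+ cells was amplified and measured on Mouse Gene 2.0 ST arrays (Affymetrix), 2 per genotype. The deposited table holds log2 values that the authors made by RMA (Affymetrix Expression Console 1.4.1 per the labels), which corrects the background, normalizes the arrays and summarizes the probes of each transcript cluster, here called a row. The normalization pulls the arrays to a common distribution, so that a value is relative to the rest of its array, and rows of different probes are not comparable as RNA amounts. Precision is set by the small number of arrays, since an exact permutation test (two-sided) of 2 arrays against 2 cannot go below a p of 0.333. Each array holds a separate pool of mice, and the main p values are set against the spread between pools of a genotype. That spread includes any difference between the replicate numbers, and limma also draws on the variance of all rows.

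All 41345 rows were used as deposited. The array annotation gave 1 gene symbol for 23521 rows, several for 1820 and none for 16004, and all 69 members matched the RefSeq gene table under the same symbol. Genotypes were compared by lmFit and eBayes of limma 3.58.1 (R 4.3.3), tested on simulated data first, with Benjamini-Hochberg adjustment over all rows. A row passed the study threshold with more than a 1.5-fold difference and an unadjusted p under 0.05. Figures were drawn with matplotlib 3.10.9. The comparison was repeated with limma-trend, a block for the replicate number, Student's t-test, and arrays centred on the median or quantile normalized. It was also repeated with dim rows removed, other choices of row per gene, rows with 1 symbol only, and each array left out. The methods name Student's t-test for comparing 2 samples, but not specifically for the arrays. The 2 samples of a number correlated in their deviations from the group means at 0.14 over all rows. Over the 69 guidance genes this correlation was higher, at 0.24. The main comparison left the samples unpaired, and the block for the number was run as an alternative only.

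The members and lists were chosen with earlier results of these data known. By rule, full values were given for the 3 largest differences in each direction and the brightest row of each family. The rule also covered partners past the threshold with the 2 largest others. Array values of further members, such as *Ephb3*, *Epha4* and *Sema4g*, were given outside this rule.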

Additional observations from a re-analysis of the deposited data

How the results depend on the processing

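The count of guidance genes past the threshold was 0 with all arrays and with the t-test, limma-trend, quantile normalization, median centring, the filter on dim rows (54 members left), either other choice of row per gene and rows with 1 symbol only. It was 2 with the replicate block and 0 to 5 with each array left out: 4 without control 1, 2 without control 2, 0 without *Hes1*eKO 1 and 5 without *Hes1*eKO 2. The partner count of 1 became 2 with the replicate block, 2 with rows of 1 symbol only and 0 to 3 with an array left out. The median log2 fold change of the guidance genes stayed positive in all alternatives, from 0.02 to 0.22 with an array left out.

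Some genes turned sign with an array left out: *Efna3* (−0.25 to 0.0912), *Epha1* (−0.10 to 0.385), *Nrp2* (−0.89 to 0.86), *Plxna2* (−0.61 to 0.0038), *Slit3* (−0.13 to 0.35) and *Unc5b* (−0.22 to 0.90). Without *Hes1*eKO 2, *Ntn4* (1.58), *Epha2* (0.77) and *Sema3e* (−1.34) passed the threshold, as did *Ephb6* (0.87) and *Nrp2* (−0.89) without control 2, and *Nrp2* (0.86) and *Unc5b* (0.90) without control 1. There were 13 alternatives (12 for the 15 members that the filter on dim rows removed). In each that was run, 32 of 69 members kept their sign, while 36 turned only when an array was left out and 1 in another setting. Sign changes were not counted over all genes, so these counts have no background to be read against. A fit with an array left out treats the lone sample as varying like the other group. The cause of these shifts was not tested beyond the array left out.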
